A study of Mus musculus with 10 samples.

Results

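The genes that flank *Crtc1* on mouse chromosome 8 were examined in the cerebral cortex of *Crtc1*-/- and WT mice. The members were 59 named genes near *Crtc1*, chosen with earlier results of these data known, and they left out other genes of the same stretch. They were ordered by the RefSeq gene order of GRCm38.p6. A gene was measured where at least 1 probe set of the array names it and no other gene. Of the 59 genes, 56 were measured by 94 probe sets, among 18193 genes and 45037 probe sets tested in all. *Isyna1*, *Gdf15* and *Pde4c* had no such probe set and were not analysed here. The brightest probe set, by its mean over all 10 arrays, stood for each gene. A position below counts genes of the reference order from *Crtc1*, predicted genes included, with *Crtc1* at 0. The measured members ran from *Psd3* at position -73 to *Sin3b* at position 132, with 22 on the lower side of *Crtc1* and 34 on the higher side.

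RNA came from 5 *Crtc1*-/- mice (Crtc1KO), homozygous for a knockout of the gene, and from 5 WT littermates. All 10 mice were untreated females of the strain C57BL/6N, adult at 2 months of age. Each mouse gave 1 Affymetrix GeneChip array of the mouse genome, on which sets of short probes bind labelled copies of the messages, so each value is the log2 brightness of a probe set and not a count of molecules. The embryonic stem cell strain of the targeted allele and the number of backcrosses were not given in the sources used here. The targeted allele and the DNA inherited with it were present in the same 5 mice, so the loss of *Crtc1* and a difference in the linked DNA cannot be told apart in these arrays. The probes were not compared with the DNA of these mice, so in linked DNA a base difference under a probe, which can change its brightness, and a change in the message cannot be told apart either. In this bulk tissue, fewer cells of a type and less RNA per cell cannot be told apart.

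CRTC1 is a coactivator that moves into the nucleus of active neurons and binds the transcription factor CREB on cAMP response elements in promoters. A knockout is made on 1 chromosome, and animals selected for the targeted allele also inherit the neighbouring stretch of that chromosome, because recombination seldom separates close genes. The neighbours of a knocked out gene are therefore a usual place to look in a comparison with WT littermates.

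*Crtc1* itself was low in every *Crtc1*-/- cortex. Its probe set 1434476_at read 6.28, 6.58, 6.47, 5.96 and 6.60 in *Crtc1*-/- mice, against 9.86, 9.84, 9.64, 9.51 and 9.62 in WT mice. The groups were far apart, with a log2 fold change, *Crtc1*-/- minus WT, of -3.32 (standard error 0.12, limma adjusted p = 8.35e-08 over genes). Of its other probe sets, 1458443_at was lower too (log2 fold change -1.78, limma adjusted p = 1.36e-05 over probe sets), whereas 1446533_at read 4.52 ± 0.05 in *Crtc1*-/- cortices, against 4.55 ± 0.13 in WT cortices (log2 mean ± SD of 5 mice each). The arrays were alike as a whole: the log2 medians of the arrays lay within 0.0322 of each other, and any pair of them correlated at 0.994 to 0.998 over probe sets. The 9 measured markers of cortical projection neurons (of 10 listed) were bright, with a median above 93.45% of all probe sets. Astrocyte markers, at 93.33%, and striatal markers, at 85.29%, were bright too, so this brightness does not single out the cortex. The difference between 3' and 5' probe sets of *Gapdh*, a sign of RNA breakdown, averaged 0.09 ± 0.04 in *Crtc1*-/- cortices, against 0.10 ± 0.01 in WT cortices (log2 units, SD of 5 mice each).

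Around *Crtc1*, 13 of the 56 measured flanking genes passed the test (23.2%), 6 lower and 7 higher in *Crtc1*-/- cortex. A gene passed where its limma p, adjusted by Benjamini and Hochberg over all 18193 genes, was under 0.05. Over all genes 139 passed, which is 0.764%, with 0.456% lower and 0.308% higher in *Crtc1*-/- mice. Without *Crtc1* and the flanking genes, 125 of 18136 genes passed (0.689%). *Slc5a5*, *Tmem59l*, *Arrdc2*, *Haus8*, *Ccdc124* and *Psd3* fell, and *Ocel1*, *Plvap*, *Lpl*, *Gtpbp3*, *Ssbp4*, *Csgalnact1* and *Rex1bd* rose. The groups did not overlap in 20 of the 56 (35.7%), 9 with *Crtc1*-/- mice below and 11 with *Crtc1*-/- mice above, against 3.14% of all genes. The median absolute log2 difference was 0.112 over the flanking genes and 0.0506 over all genes, while the median signed difference was -0.025 and -0.003. The differences thus ran in both directions. Replicate SDs of the flanking genes were close to those of all genes, with medians of 0.0778 against 0.0928 in *Crtc1*-/- mice and 0.0905 against 0.0975 in WT mice.

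**Figure D1:**
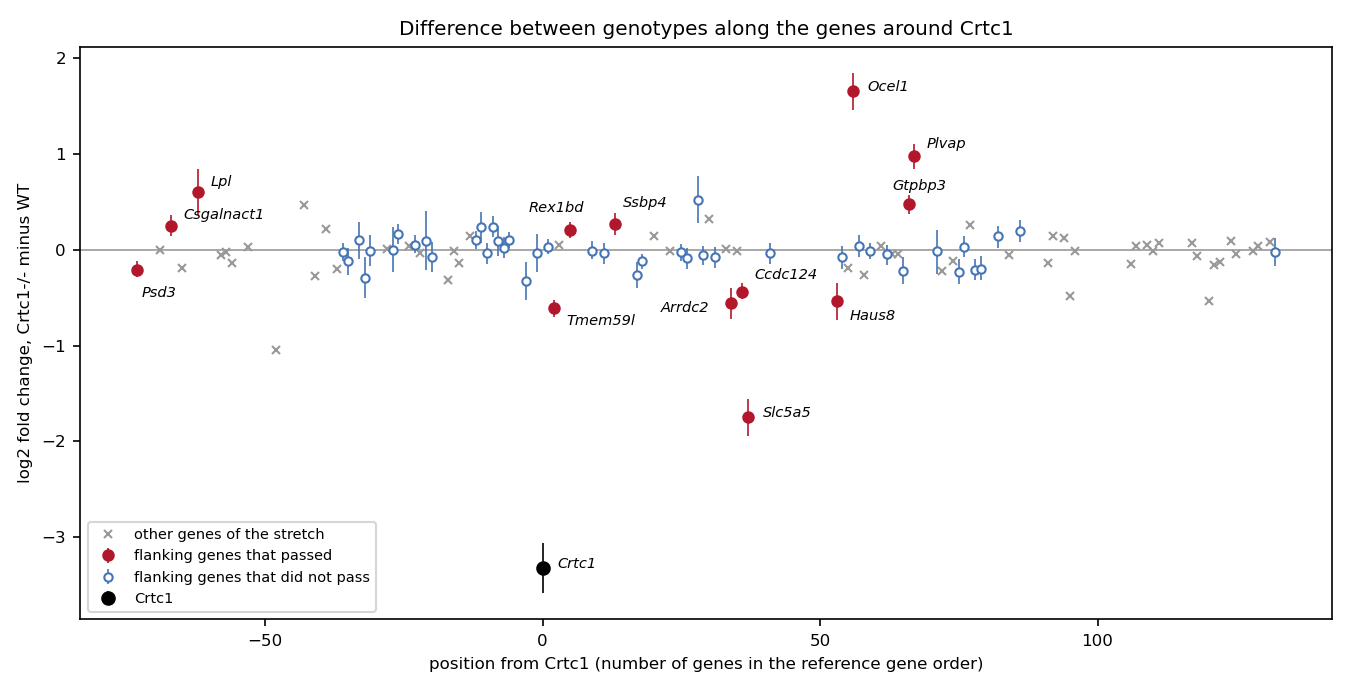
Log2 fold change, *Crtc1*-/- minus WT (y axis), of the measured genes around *Crtc1* by position in the reference gene order (x axis, number of genes); filled red points passed, open blue points did not, grey crosses are other genes of the stretch, and bars are 95% confidence intervals. *Crtc1* at -3.32 is the lowest point, *Slc5a5* at -1.75 and *Ocel1* at 1.65 stand out on the higher side, and genes near 0 lie between genes that passed.

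The genes that passed were spread along the stretch and did not form a single run next to *Crtc1*. On the lower side 3 of 22 passed, and these were the outermost 3, *Psd3*, *Csgalnact1* and *Lpl*, at positions -73, -67 and -62. Between them and *Crtc1*, no member passed in limma by its brightest probe set. These were 9 members at positions -36 to -21 and 10 at positions -20 to -1. For *Gatad2a* at position -26, 2 dimmer probe sets passed over probe sets, as given below. An unadjusted limma p under 0.05 was met by 2 of the 9 and 5 of the 10, against 1794 of all 18193 genes. On the higher side 10 of 34 passed, from *Tmem59l* at position 2 to *Plvap* at position 67. The nearest neighbours were near 0: *Comp*, a cartilage matrix protein at position -1, differed by -0.04, and *Klhl26*, a Kelch family gene at position 1, by 0.03 on the log2 scale. *Comp* was dim, averaging 4.12 in *Crtc1*-/- mice and 4.16 in WT mice. The next measured members differed more. *Upf1* at position -3 differed by -0.33 and did not pass (limma adjusted p = 0.166), and *Tmem59l* at position 2 differed by -0.61 and passed. At the far end, *Sin3b*, a transcriptional corepressor, differed by -0.03.

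Genes of the same stretch that were not among the members also differed. Of 53 such genes measured between *Psd3* and *Sin3b*, 5 passed (9.43%), 4 lower and 1 higher. The zinc finger gene *Zfp868* at position -43 rose by 0.46 (limma adjusted p = 0.00225), with values of 7.63 to 7.80 in *Crtc1*-/- mice and 7.15 to 7.44 in WT mice. Lower were the predicted gene *Gm10033* at position -48 (log2 fold change -1.05), the zinc finger genes *Zfp869* at -41 (-0.28) and *Zfp961* at 95 (-0.48), and *Calr3*, a calreticulin family gene, at 120 (-0.54), with limma adjusted p of 0.0377, 0.0364, 0.00447 and 0.0198. *Gm10033* and *Calr3* were dim, averaging 2.94 and 3.68 in *Crtc1*-/- mice and 3.99 and 4.23 in WT mice. Beyond the outermost members none passed among the 33 measured genes of the next 100 positions below, nor among the 30 of the next 100 above, with 5 and 4 of them at an unadjusted limma p under 0.05. That p was met by 1794 of all 18193 genes. Within 200 positions, 2 of 59 genes below passed (3.39%) and none of 72 above, with 15 and 8 at an unadjusted limma p under 0.05. Those 2, named after their values were seen, were *Wdr17* at position -227 (log2 fold change -0.67, limma adjusted p = 0.00636) and the glycine receptor gene *Glra3* at -203 (0.64, limma adjusted p = 0.0496). Over the whole of the chromosome outside the stretch, 3 of 830 genes passed (0.361%), the remaining one being *Efnb2* at position -979 (-0.26).

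Marker lists of other cells and regions were compared as well. Of 9 lists, 2 had an exact permutation p under 0.05 before adjustment and none after it. The 12 hippocampal markers (of 12 listed) averaged 6.65 to 6.81 per mouse in *Crtc1*-/- mice and 6.82 to 7.01 in WT mice, and 2 of them fell (p = 0.00794 by a two-sided exact permutation, which is the lowest p possible with 5 mice a group, adjusted p = 0.0714 over the lists). The 10 measured oligodendrocyte markers (of 12 listed) averaged 10.11 to 10.44 in *Crtc1*-/- mice and 9.84 to 10.18 in WT mice, all 10 leaning upwards and none passing (exact permutation p = 0.0317, adjusted p = 0.143). With the hippocampal list mean as a covariate in limma, 3 flanking genes passed as lower and 2 as higher, and with the oligodendrocyte mean 4 and 3. *Slc5a5*, *Tmem59l*, *Ccdc124*, *Ocel1* and *Plvap* passed in both of these fits. Among genes that lost the call with the hippocampal mean, the log2 fold change with the covariate was -0.63 for *Arrdc2*, against -0.56 without it, and 0.53 for *Gtpbp3*, against 0.47. It was smaller for *Lpl* (0.41, against 0.60) and *Csgalnact1* (0.16, against 0.25). The standard errors were larger with the covariate, at 0.122 for *Arrdc2* and 0.171 for *Lpl*, against 0.0733 and 0.109 without it. The hippocampal list mean did not overlap between the genotypes, so a call kept or lost in that fit does not measure a part of the tissue. The part of either list in the differences was not tested. For the other lists, the unadjusted exact permutation p of the list mean was 0.111 for projection neurons and for astrocytes, 0.952 for microglia, 0.587 for choroid plexus, 0.929 for striatum and 0.175 for blood.

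Promoters were read for the cAMP response element, through which CREB and CRTC1 act. The RefSeq table of GRCm38.p6 held windows of 250 bases before to 50 after the start for 47 of the 56 measured members, 9 of the 13 that passed among them. The palindrome TGACGTCA was in 3 of 47 members (6.38%), against 2.92% of 14452 measured genes with an entry. TGACG on either strand, which lies within the palindrome and is its core, was in 13 of 47 members (27.7%), against 30.0% of measured genes. Of the 9 that passed, *Tmem59l* held the palindrome and *Ccdc124* the core alone, at -54 and -7, and the other 7 held neither. The other members with the palindrome were *Cope* and *Ddx49*, a pair of opposite genes that share 1 copy at chr8:70302557-70302564 and did not pass. The 250 bases before the start are shown for the 4 genes of clear change in which the motif was present or absent and for *Cope*, 5' to 3' on the gene's strand, with each match in capitals.
*Tmem59l*, chr8:70487349-70487598, minus strand: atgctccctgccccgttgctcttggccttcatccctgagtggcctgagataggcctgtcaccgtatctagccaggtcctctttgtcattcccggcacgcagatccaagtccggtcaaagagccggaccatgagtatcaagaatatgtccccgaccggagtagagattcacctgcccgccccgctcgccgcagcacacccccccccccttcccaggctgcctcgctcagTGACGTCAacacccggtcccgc
*Ccdc124*, chr8:70873491-70873740, minus strand: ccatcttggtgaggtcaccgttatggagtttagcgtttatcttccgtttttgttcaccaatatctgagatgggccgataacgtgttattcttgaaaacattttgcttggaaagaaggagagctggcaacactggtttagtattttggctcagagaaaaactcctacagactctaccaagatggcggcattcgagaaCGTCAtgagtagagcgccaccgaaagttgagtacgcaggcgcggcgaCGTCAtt
*Slc5a5*, chr8:70892758-70893007, minus strand: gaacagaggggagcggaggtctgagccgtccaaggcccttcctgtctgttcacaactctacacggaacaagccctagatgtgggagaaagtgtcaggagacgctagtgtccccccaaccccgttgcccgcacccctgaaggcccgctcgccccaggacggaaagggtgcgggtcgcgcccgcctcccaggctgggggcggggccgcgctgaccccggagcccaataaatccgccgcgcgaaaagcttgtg
*Ocel1*, chr8:71371048-71371297, plus strand: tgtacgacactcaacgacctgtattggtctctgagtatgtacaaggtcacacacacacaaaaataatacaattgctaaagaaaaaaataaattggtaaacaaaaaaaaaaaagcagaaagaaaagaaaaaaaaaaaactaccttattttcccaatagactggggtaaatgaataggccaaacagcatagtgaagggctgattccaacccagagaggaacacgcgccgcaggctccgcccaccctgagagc
*Cope*, chr8:70302517-70302766, plus strand: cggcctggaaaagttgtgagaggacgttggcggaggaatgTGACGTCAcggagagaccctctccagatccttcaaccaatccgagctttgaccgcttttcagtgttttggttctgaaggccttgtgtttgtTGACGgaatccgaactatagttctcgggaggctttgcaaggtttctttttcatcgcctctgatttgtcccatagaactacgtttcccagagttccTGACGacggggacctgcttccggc
*Tmem59l* carried the palindrome 22 bases before its start and fell, *Cope* carried it further upstream and did not pass, and *Slc5a5* and *Ocel1*, with the largest decrease and increase, had no match in these windows. A match is a run of letters and not a measured binding site.

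The largest decrease was in a transporter. *Slc5a5* encodes the sodium-iodide symporter, known for bringing iodide into thyroid cells, and lies at position 37. Its brightest probe set, 1436239_at, read 5.15, 5.20, 5.20, 5.62 and 5.30 in *Crtc1*-/- mice, against 6.94, 7.08, 6.92, 7.14 and 7.13 in WT mice. Every *Crtc1*-/- cortex was more than 1 log2 unit under the lowest WT cortex. The fold was 0.298 (95% confidence interval 0.261 to 0.340, limma adjusted p = 1.11e-06). Its second probe set, 1422113_at, was lower as well, with 5.06, 4.89, 5.21, 4.85 and 4.92 in *Crtc1*-/- mice against 5.52, 5.74, 5.29, 5.57 and 5.56 in WT mice (log2 fold change -0.55, limma adjusted p = 0.028 over probe sets). The groups of this dimmer probe set did not overlap, but its difference was much smaller. The other 6 transport and membrane traffic genes did not pass. They were *Slc25a42*, a mitochondrial coenzyme A carrier (0.23), *Fcho1* of clathrin-coated pits (0.19), *Cope* of the COPI coat (0.10), *Atp13a1*, an ATPase of the endoplasmic reticulum (-0.03), the anoctamin *Ano8* (-0.22) and the fatty acid transporter *Slc27a1* (-0.23). The dimmer *Slc27a1* probe set, 1435658_at, had the opposite sign (0.22). Its groups did not overlap, but it did not pass (limma adjusted p = 0.168 over probe sets).

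The largest increase was in *Ocel1* at position 56, which encodes a protein with an occludin-like domain. Its only probe set, 1425191_at, read 6.62, 6.35, 6.38, 6.60 and 6.52 in *Crtc1*-/- mice, against 4.75, 4.85, 4.61, 4.92 and 5.11 in WT mice. The lowest *Crtc1*-/- cortex was 6.35 and the highest WT cortex 5.11. The fold was 3.14 (95% confidence interval 2.74 to 3.59, limma adjusted p = 2.00e-06). *Ccdc124*, a coiled-coil protein that binds ribosomes, at position 36, next to *Slc5a5*, fell. It read 9.41, 9.35, 9.27, 9.39 and 9.40 in *Crtc1*-/- mice, against 9.80, 9.78, 9.78, 9.80 and 9.85 in WT mice (probe set 1428605_at, fold 0.738, limma adjusted p = 0.00027). The WT values spanned less than 0.1 on the log2 scale and lay well clear of the *Crtc1*-/- values. Its other probe set, 1428606_at, was dim and differed by -0.02, averaging 4.15 in *Crtc1*-/- mice and 4.17 in WT mice. *Armc6* (-0.04), *Tmem161a* (0.10) and *Klhl26*, the remaining genes with no role assigned here, did not pass.

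Among 7 neuronal and synaptic genes, 2 fell and none rose (28.6%, against 23.2% of all flanking genes and 0.764% of all genes). *Tmem59l*, a brain-enriched membrane protein gene at position 2, was read by 1 probe set, 1452825_at, at 10.72, 10.66, 10.61, 10.65 and 10.65 in *Crtc1*-/- mice, against 11.24, 11.29, 11.23, 11.31 and 11.29 in WT mice. Both groups were narrow and the gap between them was several times their width (fold 0.654, 95% confidence interval 0.617 to 0.693, limma adjusted p = 6.14e-06). *Psd3*, which activates the small GTPase ARF6 and lies in the postsynaptic density, read 11.40, 11.38, 11.30, 11.40 and 11.38 in *Crtc1*-/- mice, against 11.62, 11.61, 11.55, 11.53 and 11.60 in WT mice (probe set 1418749_at, fold 0.866, limma adjusted p = 0.0336). The groups did not overlap, though they came within 0.12 of each other. The call was lost over probe sets (limma adjusted p = 0.0955) and in 9 of 10 fits that left out 1 mouse. Synaptic vesicle genes were near 0 or did not pass: *Rab3a*, the vesicle GTPase, differed by -0.03 and *Unc13a*, which primes vesicles for release, by -0.20. *Homer3*, a postsynaptic scaffold (0.09), the kinase gene *Mast3* (-0.08) and *Map1s*, a microtubule-binding protein gene (-0.04), did not pass.

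**Figure D2:**
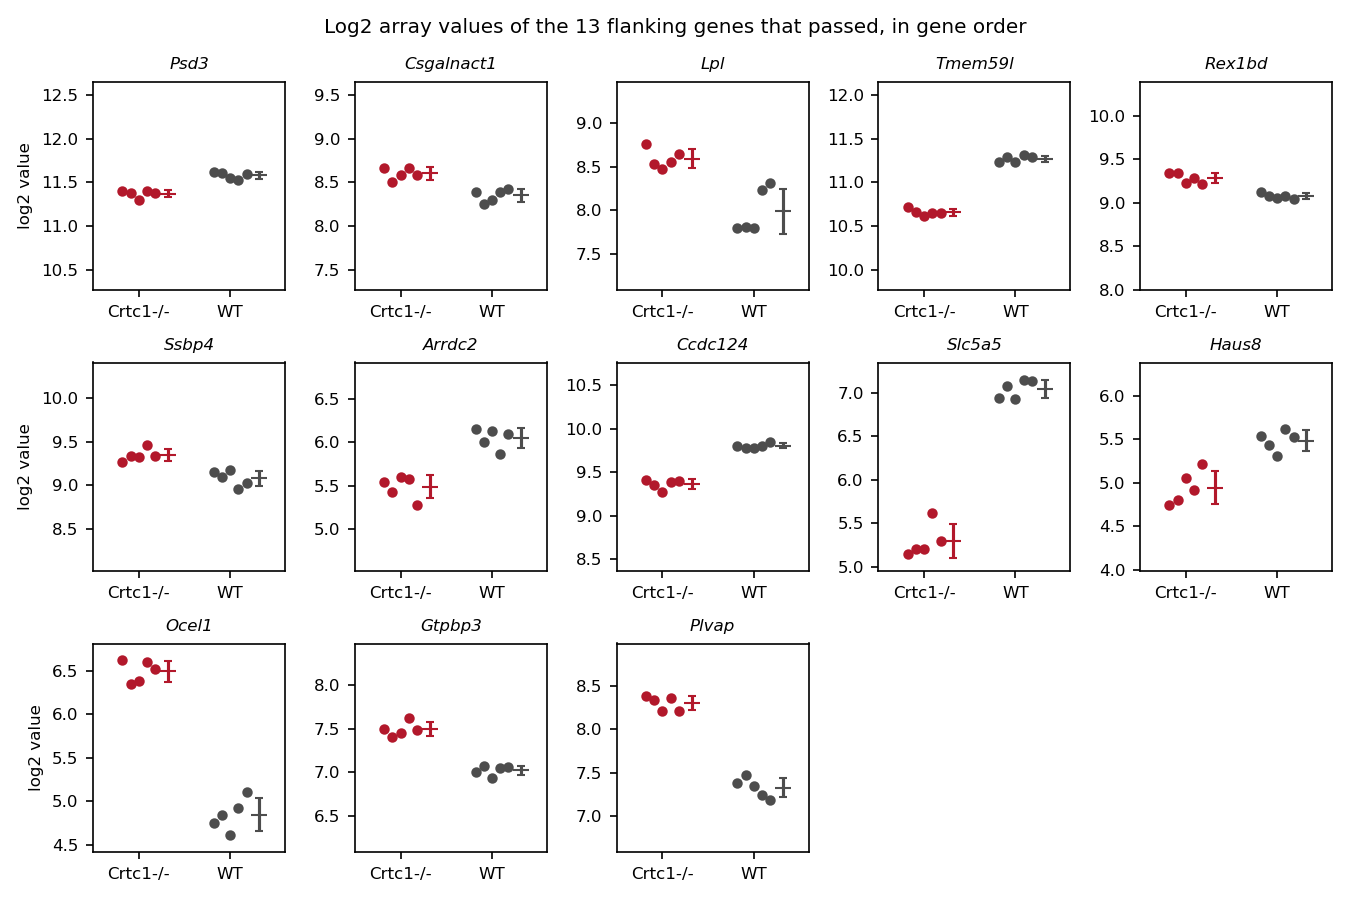
Log2 array values (y axis of each panel, not starting at 0) of the 13 flanking genes that passed, in *Crtc1*-/- mice (red, left) and WT mice (grey, right), 1 point per mouse, with bars for mean ± SD (n = 5 each). The y axes span equal log2 ranges, so the wide gaps of *Slc5a5* and *Ocel1* can be set against the narrow ones of *Psd3* and *Rex1bd*.

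Of 4 immune and vascular genes, 1 rose (25.0%, against 23.2% of all flanking genes and 0.764% of all genes). *Plvap* at position 67 encodes the protein that forms the diaphragms of fenestrated endothelium and is normally scarce in vessels with a mature blood-brain barrier. Probe set 1418090_at read 8.38, 8.34, 8.21, 8.36 and 8.21 in *Crtc1*-/- mice, against 7.38, 7.47, 7.35, 7.25 and 7.19 in WT mice. All *Crtc1*-/- cortices were higher, with a fold of 1.96 (95% confidence interval 1.79 to 2.15, limma adjusted p = 6.14e-06). The 9 measured endothelial markers (of 10 listed) averaged 7.72 to 7.88 per mouse in *Crtc1*-/- mice and 7.53 to 7.86 in WT mice, 8 of the 9 leaned upwards, and none passed (two-sided exact permutation test of the list mean, p = 0.405). *Ifi30*, a lysosomal thiol reductase of antigen-presenting cells, did not pass but its groups did not overlap, with 6.13 to 6.52 in *Crtc1*-/- mice and 5.43 to 6.05 in WT mice (log2 fold change 0.52, limma adjusted p = 0.0672). Microglial markers averaged 8.17 to 8.49 in *Crtc1*-/- mice and 8.18 to 8.55 in WT mice. *Jak3*, a cytokine receptor kinase (0.14), and the interferon-induced *Bst2* (-0.02) did not pass.

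Of 7 genes of metabolism and mitochondria, 2 rose (28.6%, against 23.2% of all flanking genes and 0.764% of all genes). *Lpl*, lipoprotein lipase, lies at position -62. It read 8.76, 8.53, 8.48, 8.55 and 8.65 in *Crtc1*-/- mice, against 7.80, 7.81, 7.80, 8.23 and 8.31 in WT mice (probe set 1415904_at, fold 1.52, limma adjusted p = 0.0268, and 0.0527 over probe sets). Leaving out 1 mouse lost the call in 7 of 10 fits. The WT mice fell into a group of 3 near 7.80 and a pair above 8.2, and their SD of 0.26 compared with 0.11 in *Crtc1*-/- mice. The second probe set, 1431056_a_at, differed by 0.60 as well and did not pass (limma adjusted p = 0.144 over probe sets), with the same 2 WT mice highest. *Gtpbp3* at position 66, directly before *Plvap*, modifies mitochondrial transfer RNA. It read 7.50, 7.41, 7.45, 7.62 and 7.49 in *Crtc1*-/- mice, against 7.0, 7.07, 6.94, 7.05 and 7.06 in WT mice (probe set 1450980_at, fold 1.39, limma adjusted p = 0.00057). Its dim second probe set, 1457975_at, leaned the other way at 4.40 ± 0.13 in *Crtc1*-/- cortices, against 4.67 ± 0.11 in WT cortices (mean ± SD of 5 mice each, limma adjusted p = 0.309 over probe sets), and the mean of both did not pass (0.10). *Fkbp8* of the mitochondrial outer membrane (-0.01), the hydrolase-like *Abhd8* (-0.05), *Mpv17l2*, linked to mitochondrial ribosomes (-0.09), and *Pgls* of the pentose phosphate pathway (0.03) were under 0.1 in size.

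*Pgpep1*, a peptidase that removes pyroglutamate from peptides, did not pass by its brightest probe set (log2 fold change -0.26, limma adjusted p = 0.102), although the groups did not overlap. Its probe set 1460001_at read 5.32, 5.50, 5.79, 5.53 and 5.49 in *Crtc1*-/- mice, against 6.03, 6.18, 5.86, 6.10 and 5.95 in WT mice, and passed over probe sets (log2 fold change -0.50, limma adjusted p = 0.0406). The highest *Crtc1*-/- value lay just under the lowest WT value. Another probe set, 1439858_at, had the opposite sign (0.20) and did not pass.

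Of 9 nuclear genes, 2 rose and 1 fell (33.3%, against 23.2% of all flanking genes and 0.764% of all genes). *Haus8*, a subunit of the augmin complex of the mitotic spindle, at position 53, read 4.74, 4.80, 5.05, 4.92 and 5.21 in *Crtc1*-/- mice, against 5.53, 5.43, 5.31, 5.62 and 5.52 in WT mice (probe set 1418719_at, fold 0.689, limma adjusted p = 0.0152). Its probe set, brighter than 49.0% of all probe sets, was left out of the setting without dim ones. *Haus8* lost the call in 4 of the 11 other settings. *Ssbp4* of the single-stranded DNA binding family, at position 13, read 9.27, 9.34, 9.33, 9.46 and 9.34 in *Crtc1*-/- mice, against 9.15, 9.09, 9.17, 8.96 and 9.03 in WT mice (probe set 1449511_a_at, fold 1.2, limma adjusted p = 0.037). *Rex1bd* at position 5 read 9.34, 9.34, 9.23, 9.29 and 9.22 in *Crtc1*-/- mice, against 9.13, 9.08, 9.06, 9.08 and 9.05 in WT mice (probe set 1418702_a_at, fold 1.15, limma adjusted p = 0.0421). The nearest mice of the genotypes were only 0.11, 0.10 and 0.09 log2 units apart in *Haus8*, *Ssbp4* and *Rex1bd*. Over probe sets *Ssbp4* and *Rex1bd* no longer passed (limma adjusted p = 0.0891 and 0.113), and they lost the call in 9 and 10 of 10 fits without 1 mouse. The homeodomain gene *Pbx4* (-0.30), *Nr2f6*, an orphan nuclear receptor (0.04), the elongation factor gene *Ell* (-0.04), *Babam1* of a BRCA1 complex (-0.01) and *Sin3b* did not pass.

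*Gatad2a*, a subunit of the NuRD chromatin remodelling complex at position -26, gave different answers by probe set. Its brightest, 1423992_at, read 8.35 ± 0.06 in *Crtc1*-/- cortices, against 8.18 ± 0.07 in WT cortices (log2 mean ± SD of 5 mice each) and did not pass. Probe set 1451198_at read 5.17, 5.18, 5.27, 5.36 and 5.05 in *Crtc1*-/- mice, against 6.08, 5.75, 5.55, 5.60 and 5.72 in WT mice. Probe set 1455505_at read 6.34, 6.12, 6.12, 5.89 and 6.16 in *Crtc1*-/- mice, against 6.99, 6.60, 6.59, 6.50 and 6.75 in WT mice. These 2 dimmer probe sets were lower in every *Crtc1*-/- cortex (log2 fold changes -0.53 and -0.56, limma adjusted p = 0.0442 each over probe sets), opposite in sign to the brightest. The remaining probe sets of the gene differed by 0.13 and 0.09.

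Across the 25 members with several probe sets, 38 probe sets were dimmer than the one that stood for the gene. Of these, 25 had the same sign as the brightest and 13 the opposite sign. Only the 4 given above, of *Gatad2a*, *Pgpep1* and *Slc5a5*, passed over probe sets, and all were lower in *Crtc1*-/- mice. Over all 94 probe sets of the flanking genes, 12 passed, 9 lower and 3 higher, against 0.302% of all probe sets. Of the 13 genes that passed, 7 had a single probe set, *Ocel1* among them, and no other probe set could be set beside theirs. Where probe sets of a gene differed in size or sign, as for *Slc5a5*, *Gatad2a* and *Gtpbp3*, a base difference under the probes was not tested.

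**Figure D3:**
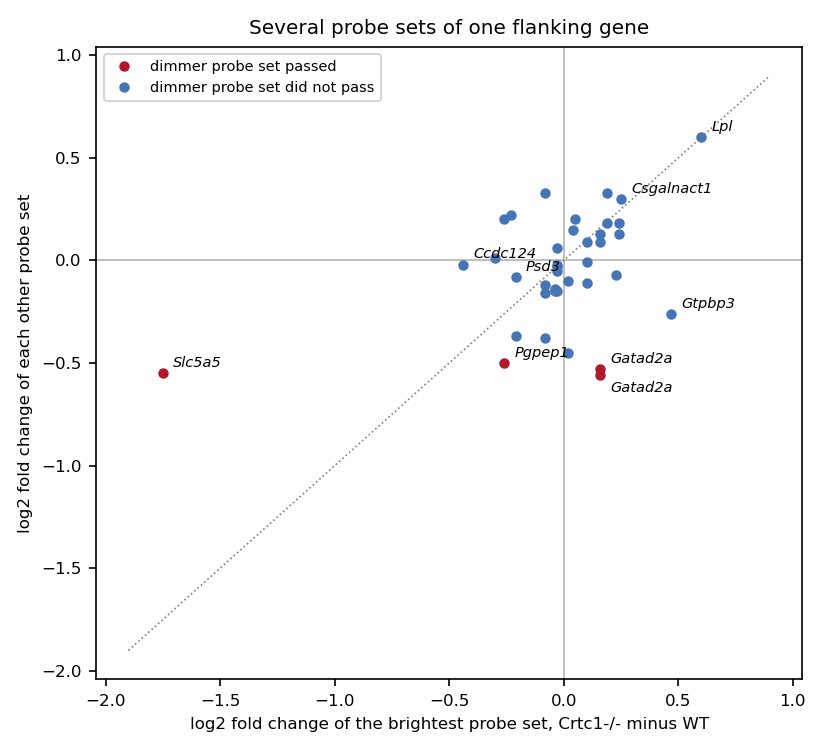
Log2 fold change, *Crtc1*-/- minus WT, of each dimmer probe set (y axis) against that of the brightest probe set of the same flanking gene (x axis); red points passed over probe sets, and the dotted line marks equal values. The *Lpl* point lies on the line at 0.60, the 2 red *Gatad2a* points and *Gtpbp3* lie on the opposite side of 0 from their brightest probe sets, and the dimmer *Slc5a5* probe set differed by -0.55 where the brightest differed by -1.75.

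Of 6 matrix genes, 1 rose (16.7%, against 23.2% of all flanking genes and 0.764% of all genes). *Csgalnact1*, which starts chondroitin sulfate chains, at position -67, had 8.67, 8.50, 8.59, 8.67 and 8.59 in *Crtc1*-/- mice, against 8.39, 8.25, 8.30, 8.39 and 8.43 in WT mice (probe set 1452366_at, fold 1.19, limma adjusted p = 0.0411). The groups came within 0.07 of each other. The call was lost over probe sets (limma adjusted p = 0.0966) and in 8 of 10 fits without 1 mouse. *Colgalt1*, which adds galactose to collagen, did not pass, though *Crtc1*-/- mice lay at 8.19 to 8.39 and WT mice at 8.44 to 8.58. Neurocan (*Ncan*, -0.08) and the link protein gene *Hapln4* (0.09), both of the matrix around neurons, *Comp* and *Cilp2* of cartilage (-0.01 for *Cilp2*) did not pass. WT mice varied more in *Hapln4* than *Crtc1*-/- mice, with an SD of 0.35 against 0.11 in *Crtc1*-/- mice. WT replicates 4 and 5 read 9.39 and 9.41, against 8.80, 8.80 and 8.69 in WT replicates 1 to 3. The same 2 WT mice were highest in *Lpl*. They were the lowest WT mice in *Ncan* (10.13 and 10.16), *Pgpep1* (6.23 and 6.30) and *Ifi30* (5.43 and 5.70), named after their values were seen. This split among WT mice was not tested.

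Of 6 signalling genes, *Arrdc2* at position 34 fell (16.7%, against 23.2% of all flanking genes and 0.764% of all genes). It encodes an arrestin domain protein of a family that acts in receptor traffic, and read 5.54, 5.43, 5.60, 5.58 and 5.28 in *Crtc1*-/- mice, against 6.15, 6.00, 6.13, 5.86 and 6.09 in WT mice (probe set 1428352_at, fold 0.679, limma adjusted p = 0.00375). The highest *Crtc1*-/- cortex lay 0.26 under the lowest WT cortex. At positions 34 to 37 it, *Ccdc124* and *Slc5a5* fell, while *Kcnn1*, a potassium channel gene at position 35 that was no member and was named after its value was seen, differed by -0.01 (limma adjusted p = 0.969). *Gmip* (-0.12), *Lpar2*, a receptor for lysophosphatidic acid (0.10), *Tssk6*, a testis kinase (under 0.005 in size), *Pik3r2*, a regulatory subunit of phosphoinositide 3-kinase (-0.06), and *Myo9b*, a myosin (-0.08), did not pass. None of 5 RNA-processing genes passed, against 23.2% of all flanking genes. An unadjusted limma p under 0.05 was met by 3 of these 5 genes (against 1794 of all 18193). They were *Upf1*, the helicase of nonsense-mediated decay (-0.33, limma adjusted p = 0.166), *Sugp2* (0.24, limma adjusted p = 0.0527) and *Sugp1* (0.05), both G-patch genes, *Lsm4* (-0.12), which binds the ends of small RNAs, and the helicase *Ddx49* (0.02). A dimmer *Ddx49* probe set, 1435681_s_at, differed by -0.45. Its groups did not overlap, with 5.57 to 5.94 in *Crtc1*-/- mice and 5.98 to 6.38 in WT mice, but it did not pass (limma adjusted p = 0.0969 over probe sets). The groups did not overlap in *Sugp2*, with 8.84 to 9.06 in *Crtc1*-/- mice and 8.64 to 8.78 in WT mice.

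Of the 43 flanking genes that did not pass, 27 had a log2 fold change under 0.1 in size. The groups did not overlap in 7 of these 43, namely *Gatad2a*, *Sugp2*, *Cope*, *Pgpep1*, *Lsm4*, *Ifi30* and *Colgalt1*. Over all genes, whether they passed or not, the groups did not overlap in 571 of 18193 (3.14%). At an unadjusted limma p under 0.05 there were 29 of 56 flanking genes and 1794 of all 18193 genes.

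**Figure D4:**
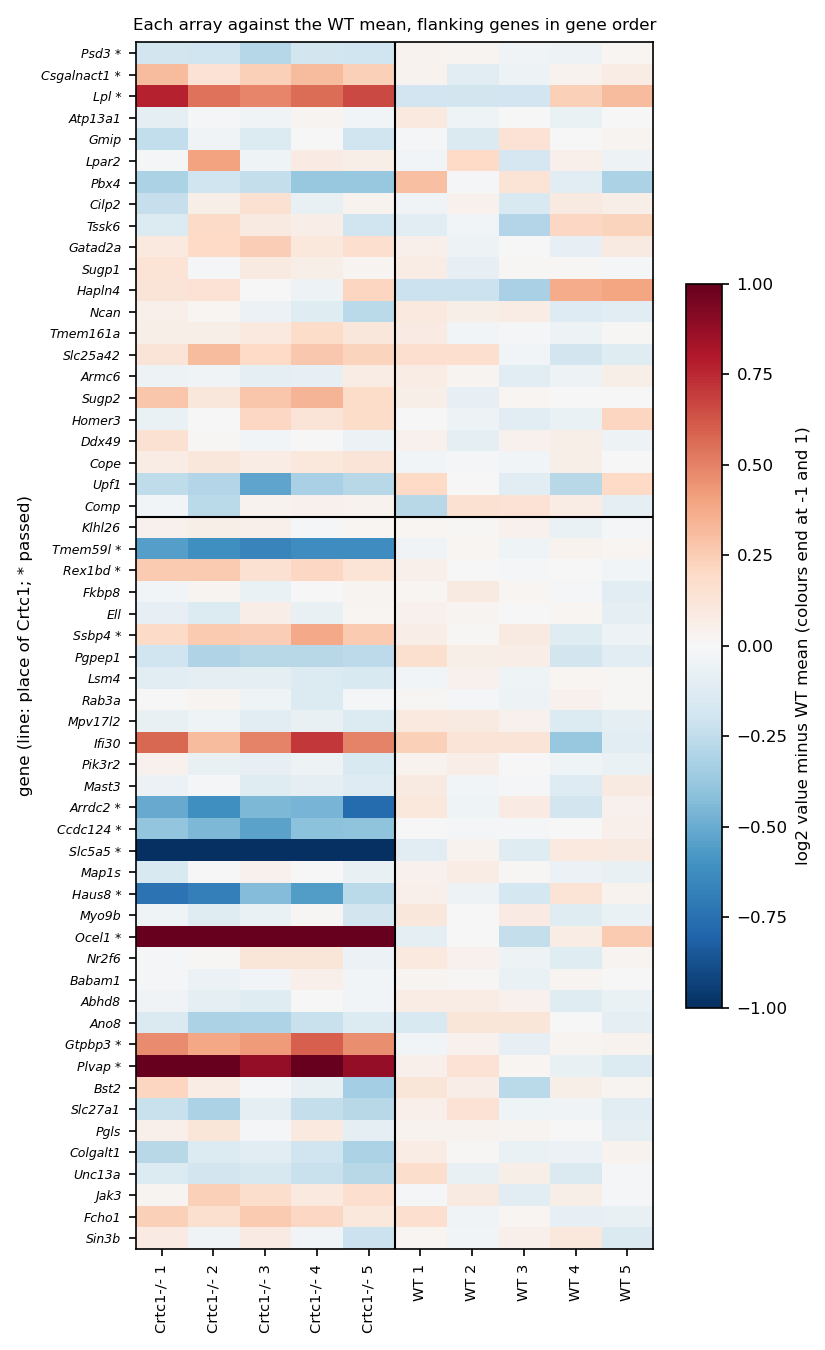
Log2 value of each array minus the WT mean of the gene (colour, ending at -1 and 1), for the 56 flanking genes in gene order (rows; the horizontal line marks *Crtc1*, an asterisk a gene that passed) in 5 *Crtc1*-/- and 5 WT mice (columns). The 13 genes that passed keep 1 colour across all *Crtc1*-/- mice, with a mean deviation in the direction of the group difference of 0.63 to 0.70 per *Crtc1*-/- mouse and -0.01 to 0.02 per WT mouse.

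The *Crtc1*-/- mice resembled each other in these genes. Averaged over the 13 genes that passed, with the sign of each gene's difference, the deviation from the WT mean was 0.63 to 0.70 in the *Crtc1*-/- mice and -0.01 to 0.02 in the WT mice. This is a description, since the same arrays chose the 13 genes. No *Crtc1*-/- mouse stood at WT levels in any of them.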

How the data were processed

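Total RNA (300 ng) of 10 cortices was labelled with the 3' IVT Express kit and hybridized to Affymetrix GeneChip arrays of the mouse genome. The authors applied the RACE quality checks, dropped chips whose unscaled standard errors were too high, and deposited each probe set as a log2 value. Their background correction, normalization and summarization were not given in the sources used here. The deposited log2 values lay between 2.14 and 13.9, no detection calls were used, and the number of arrays limits the precision. Of 45101 probe sets, 64 controls were left out. The annotation named 1 gene for 34945 of the rest, several for 932 and none for 9160, and 34741 matched the RefSeq gene table of GRCm38.p6, used for names and gene order only. Every column belonged to a sample of the series. Gene symbols in the annotation can be old, and the members of the list were matched by current symbol.

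*Crtc1*-/- was compared with WT with limma 3.58.1 (lmFit, eBayes; R 4.3.3), over 18193 genes or 45037 probe sets, with the Benjamini-Hochberg threshold at 0.05. The fit was tested on simulated data. Marker list means were compared by exact permutation over mice. Tables and figures were made in Python 3.11.15. *Crtc1* came first, every member was named, and each member that passed, by its brightest or another probe set, was given in every array. Of genes in the stretch that were no members, up to 5 that passed were named. The members, lists and tests were chosen with earlier results of these data known, so none of the counts is independent support for another. Alternatives were quantile normalization, centring on medians, removal of dim or of cross-hybridizing probe sets, other variance priors, array weights, a replicate block, marker means as covariates, the mean of all probe sets, adjustment over probe sets, and leaving out each array. A limma p-value sets the difference between genotypes against the spread between these mice, with variances moderated over all genes or probe sets tested. The quantitative PCR, protein and behaviour measurements of the study were not analysed here.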

Additional observations from a re-analysis of the deposited data

Results flagged for a closer look

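In each flanking gene and in *Crtc1*, the 5 mice of a genotype were searched for 1 mouse that lay apart from the other 4, by a gap of over 0.71 of the group's range. This was met in 7 of 114 groups (6.14%), where chance gives about 1 in 20. In *Crtc1*-/- mice, replicate 3 was lowest for *Psd3* (11.30, next 11.38) and for *Upf1* (6.88, next 7.08). *Crtc1*-/- replicate 2 was highest for *Lpar2* (4.10, next 3.78) and lowest for *Comp* (3.89, next 4.13). In WT mice, replicate 3 was lowest for *Babam1* (9.45, next 9.52) and *Bst2* (5.88, next 6.18), and replicate 5 for *Ell* (7.19, next 7.29). Of these genes only *Psd3* passed the test between genotypes, and its call was lost in 9 of the 10 fits that left out an array.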

How the results depend on the processing

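*Slc5a5*, *Ocel1*, *Plvap*, *Tmem59l* and *Ccdc124* kept their call in all 12 other settings and without each of the 10 arrays in turn, and no gene that passed changed sign. *Arrdc2*, *Haus8* and *Gtpbp3* kept it without any 1 array but lost it with the hippocampal covariate (adjusted p 0.180, 0.538 and 0.0543), and *Haus8* also with no moderation (0.0866), the replicate block (0.0713) and the oligodendrocyte covariate (0.174). Without 1 array, *Lpl* kept its call only without *Crtc1*-/- 3, WT 4 or WT 5, *Csgalnact1* without *Crtc1*-/- 2 or WT 5, *Psd3* without WT 4, *Ssbp4* without WT 3 and *Rex1bd* in no fit (largest adjusted p 0.0803, 0.111, 0.0982, 0.0938 and 0.114). Over those fits 5 to 7 genes were lower and 3 to 5 higher, 4 to 8 probe sets lower and 3 to 4 higher, and *Crtc1* lay at -3.37 to -3.21.

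Against 7 genes higher and 6 lower, there were 4 higher with no moderation, 3 higher with adjustment over probe sets, 3 higher with the oligodendrocyte covariate, and 3 lower and 2 higher with the hippocampal covariate. Against 9 probe sets lower and 3 higher, there were 4 lower with no moderation, 3 lower with the oligodendrocyte and 2 lower with the hippocampal covariate, 7 higher without dim probe sets and 8 higher with a trended, robust prior. *Gtpbp3* lost its call as the mean of its probe sets (0.10). The causes were not tested.

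The sources used here do not state that replicate numbers pair mice. Same-numbered mice of the genotypes correlated at -0.262 to 0.06, which cannot exclude a shared litter or batch. With the replicate block, 3 genes were higher and 4 lower, and 4 probe sets lower.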
